A study of Mus musculus with 64 samples.

Results

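Homeobox genes outside the Hox clusters were examined as 38 listed genes of 6 families, out of 21938 protein-coding genes of the mouse. The families held 6 Dlx, 6 Irx, 8 Lhx, 5 Nkx and 8 Pax genes and the 5 genes Six2 to Six6. A gene's window was its GENCODE gene body on mm10 with 20 kb added on either side. Every peak summit in that window was counted for each ChIP-seq library, in the full peak list and in the 20000 strongest peaks by fold enrichment. Because windows can overlap, Dlx1 and Dlx2, Dlx3 and Dlx4, and Dlx5 and Dlx6 shared summits and were not independent.

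Homeobox genes encode transcription factors with a DNA-binding homeodomain, and the families studied here pattern the embryo along its axes. Dlx genes act in forebrain, branchial arch and limb, Irx genes in neural and heart patterning, Lhx genes in neuronal identity and head formation, Six2 to Six6 in eye, forebrain and kidney, Nkx genes in ventral neural tube, heart and endoderm, and Pax genes in neural tube, neural crest, somites and kidney. Pax genes are grouped by their paired domain, and Pax1 and Pax9 lack a homeodomain, so the list is wider than its name. SOX2 is an HMG-box factor that maintains pluripotency and neural progenitors. β-catenin carries the WNT signal to chromatin through the TCF/LEF proteins, which bind DNA.

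The study asked how SOX2 levels set the response of epiblast progenitors to WNT. Binding of SOX2, β-catenin and 3 TCF/LEF factors was mapped, LEF1, TCF7L1 and TCF7L2 (the latter pair labelled TCF3 and TCF4), in 4 conditions with 3 biological replicates each, giving 60 peak lists. Naive ESC and caudal epiblast-like cells (CEpiLC) were the wild-type HM1 TetON embryonic stem cell line of the 129 strain, the parent of the engineered line. The naive ESC were kept in medium with CHIR99021, an activator of the WNT pathway, and PD0325901, a MEK inhibitor, and the CEpiLC were differentiated with FGF, the WNT secretion blocker LGK974 and then CHIR99021. SOX2-ON and SOX2-OFF were the SOX2 TetON line, a single engineered line from those cells that lacks its own Sox2 and carries a doxycycline-inducible Sox2 transgene. These cells followed the CEpiLC protocol with 1 µg/ml doxycycline or after its withdrawal. All groups carry the label 72 h. Both comparisons therefore contrast high with low SOX2, but naive ESC and CEpiLC also differ in medium and stage. Peak lists hold no expression values, so the cell identity in the labels could not be checked against marker genes.

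The lists held between 1628 and 991719 peaks, and 10 of 60 were shorter than 20000. Among the SOX2 libraries none was shorter. For β-catenin the short lists were SOX2-OFF replicate 2 with 3423 peaks, CEpiLC replicate 2 with 15201 and CEpiLC replicate 3 with 10930. Summit counts were therefore scaled to 20000 peaks. Read depth is unknown, since the lists hold no read counts.

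Summits that carry the findings below lay at 5 places, shown as 200 bases of the plus strand (mm10, RefSeq sequence of GRCm38) around the median summit. Each is shown for a pattern, namely a place found in each naive ESC and SOX2-ON library, a place found in SOX2-ON and, outside it, in 1 LEF1 library, a place strongest in CEpiLC, a place gained in CEpiLC and a place found in every β-catenin library. Capitals mark the SOX letters CATTGT and CTTTGT and the TCF letters CTTTGAA and CTTTGAT on either strand. The Pax3 place was chr1:78168049-78168248, in an intron of Pax3. The Six3 place was chr17:85605767-85605966, between protein-coding genes. The Nkx2-2 place was chr2:147189654-147189853, in an intron of Nkx2-2. The Pax5 place was chr4:44602409-44602608, in an intron of Pax5. The Lhx4 place was chr1:155741992-155742191, in an intron of Lhx4.
Pax3: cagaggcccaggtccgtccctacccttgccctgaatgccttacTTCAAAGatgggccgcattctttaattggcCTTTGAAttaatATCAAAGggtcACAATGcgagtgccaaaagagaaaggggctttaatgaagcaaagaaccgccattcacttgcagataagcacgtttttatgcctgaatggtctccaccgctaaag
Six3: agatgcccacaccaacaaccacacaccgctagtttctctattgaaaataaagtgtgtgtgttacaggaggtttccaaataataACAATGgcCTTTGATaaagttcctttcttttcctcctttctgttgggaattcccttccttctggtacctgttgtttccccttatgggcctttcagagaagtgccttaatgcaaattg
Nkx2-2: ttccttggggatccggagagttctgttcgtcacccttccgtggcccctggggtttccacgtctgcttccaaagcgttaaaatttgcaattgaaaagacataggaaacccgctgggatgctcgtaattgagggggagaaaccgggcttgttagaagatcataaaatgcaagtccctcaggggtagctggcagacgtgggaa
Pax5: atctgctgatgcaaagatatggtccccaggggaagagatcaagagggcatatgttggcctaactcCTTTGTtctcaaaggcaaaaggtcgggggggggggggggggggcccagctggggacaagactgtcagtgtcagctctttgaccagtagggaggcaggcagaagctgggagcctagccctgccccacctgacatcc
Lhx4: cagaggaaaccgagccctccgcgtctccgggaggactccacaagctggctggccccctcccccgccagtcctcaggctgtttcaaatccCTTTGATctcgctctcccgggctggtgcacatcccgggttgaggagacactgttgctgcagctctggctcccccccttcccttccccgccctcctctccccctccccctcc

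The Pax3 stretch held 3 TCF matches and 1 SOX match, the Six3 stretch 1 of each, the Pax5 stretch 1 SOX match and the Lhx4 stretch 1 TCF match. The Nkx2-2 stretch held neither, which says only that these letters are not in this window. Among all SOX2 sites of naive ESC in the genome, in windows of the same length, 61.8% held a SOX match and 15.1% a TCF match. At 5000 bp from those sites the shares were 26.3% and 8.15%. Among all β-catenin sites of the genome a TCF match lay in 38.8% for naive ESC, 41.6% for CEpiLC, 44.3% for SOX2-ON and 54.9% for SOX2-OFF, and in 8.09% to 9.19% of windows 5000 bp away. The SOX and TCF words share their first letters but cannot match at the same position and strand.

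SOX2 summits near the homeobox genes were more frequent in CEpiLC than in naive ESC. In the 20000 strongest peaks, the 38 windows together held 40, 27 and 18 SOX2 summits in the 3 naive ESC libraries and 145, 100 and 104 in the 3 CEpiLC libraries. The libraries of SOX2-ON held 52, 42 and 52, and those of SOX2-OFF 46, 34 and 62, so only CEpiLC stood apart from the other conditions. Of the 38 members, 35 reached the mean of 0.25 summits needed for the test, and Dlx4, Irx6 and Pax4 did not. With limma fitted over 16874 genes, 13 of 35 rose in CEpiLC and 0 fell, against 3.61% of all genes called higher and 1.64% called lower. The median log2 difference was 1.71 over the members and 0.08 over all genes tested, on the scale of log2 (summits per 20000 peaks + 0.5).

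Six3, which acts in forebrain and eye development, had the lowest adjusted p. It held 0, 0 and 0 SOX2 summits in the naive ESC libraries and 12, 9 and 5 in those of CEpiLC. The SOX2 TetON libraries held 2, 2 and 6 with doxycycline and 2, 2 and 1 without. Among the 20000 strongest peaks the CEpiLC libraries were above all naive ESC libraries, with a log2 difference of 4.12 ± 0.54 (SE, limma adjusted p = 2.32e-07). Like the other differences from a group at 0, that value depends on the added 0.5 because naive ESC was at 0, and is not a bound on the fold. In the full lists the groups overlapped at Six3, where naive ESC held 34, 7 and 3 summits and CEpiLC 16, 21 and 15, from naive lists of 907862, 136687 and 107016 peaks.

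Pax genes gave 3 of the 13 calls among 7 tested. Pax7, a gene of dorsal neural tube and muscle precursors, held 2, 2 and 0 summits in naive ESC and 13, 11 and 7 in CEpiLC (log2 difference 2.85 ± 0.50, limma adjusted p = 0.00015). Pax2, a gene of kidney and midbrain, held 1, 0 and 0 and then 6, 4 and 6 (3.00 ± 0.54, limma adjusted p = 0.000185). Pax9, a gene of sclerotome and pharyngeal pouch, held 0, 1 and 0 and then 6, 3 and 5 (2.79 ± 0.59, limma adjusted p = 0.00184). Among the 20000 strongest peaks the groups did not overlap for any of these genes. In the full lists they overlapped at each of them, as at Six3. Pax7 held 72, 8 and 7 summits there in naive ESC and 19, 23 and 14 in CEpiLC. Pax3 had the highest mean of all members for SOX2, 7.17 summits per 20000 peaks over the 12 libraries, but its 9, 5 and 2 summits in naive ESC and 12, 8 and 10 in CEpiLC overlapped (1.03 ± 0.35, limma adjusted p = 0.0677).

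Dlx genes gave 4 calls among 5 tested, from 2 pairs of genes with overlapping windows. Dlx1 and Dlx2, genes of forebrain interneurons, had the same counts of 0, 1 and 0 in naive ESC and 8, 4 and 5 in CEpiLC (3.04 ± 0.63, limma adjusted p = 0.00116). Dlx6 held 2, 1 and 1 and then 10, 6 and 6 summits, and most of them were also counted for Dlx5. Dlx6 also had 6, 2 and 9 summits in SOX2-OFF, which reached the range of CEpiLC.

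Lhx genes gave 3 calls among 8 tested. Lhx2, which acts in forebrain and eye, held 1, 0 and 0 and then 6, 5 and 3 summits, and Lhx5 held 1, 1 and 1 and then 7, 3 and 5. Lhx4, a gene of pituitary development, held 3, 0 and 0 in naive ESC and 5, 6 and 4 in CEpiLC, with 2, 1 and 1 in SOX2-ON and none in SOX2-OFF. Irx2, Nkx2-2 and Six3 were the only calls of their families, at 1 of 5 tested each. Nkx2-2, which marks ventral neural progenitors, held 0, 1 and 1 summits in naive ESC and 7, 5 and 6 in CEpiLC (2.63 ± 0.65, limma adjusted p = 0.00998).

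Counted without a test, 17 of 35 members had all CEpiLC libraries above all naive ESC libraries, where 10% of all genes tested did. Besides the 13 called genes these were Lhx3, Pax1, Pax5 and Irx3. Lhx3 and Irx3 reached the filter only through CEpiLC. With the filter set on the other 9 libraries, 33 members were left, of which 15 had this order and 13 were called, beside 9.41% and 3.46% of the genes left. Nkx6-2 was the only member with all CEpiLC libraries lower, at 1, 2 and 1 summits in naive ESC against 0, 0 and 0, where 5.86% of all genes did. It passed the filter only through naive ESC, and so had to differ. Of 53 tested homeobox genes outside these families and outside the Hox clusters, 12 rose and 0 fell.

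**Figure D1:**
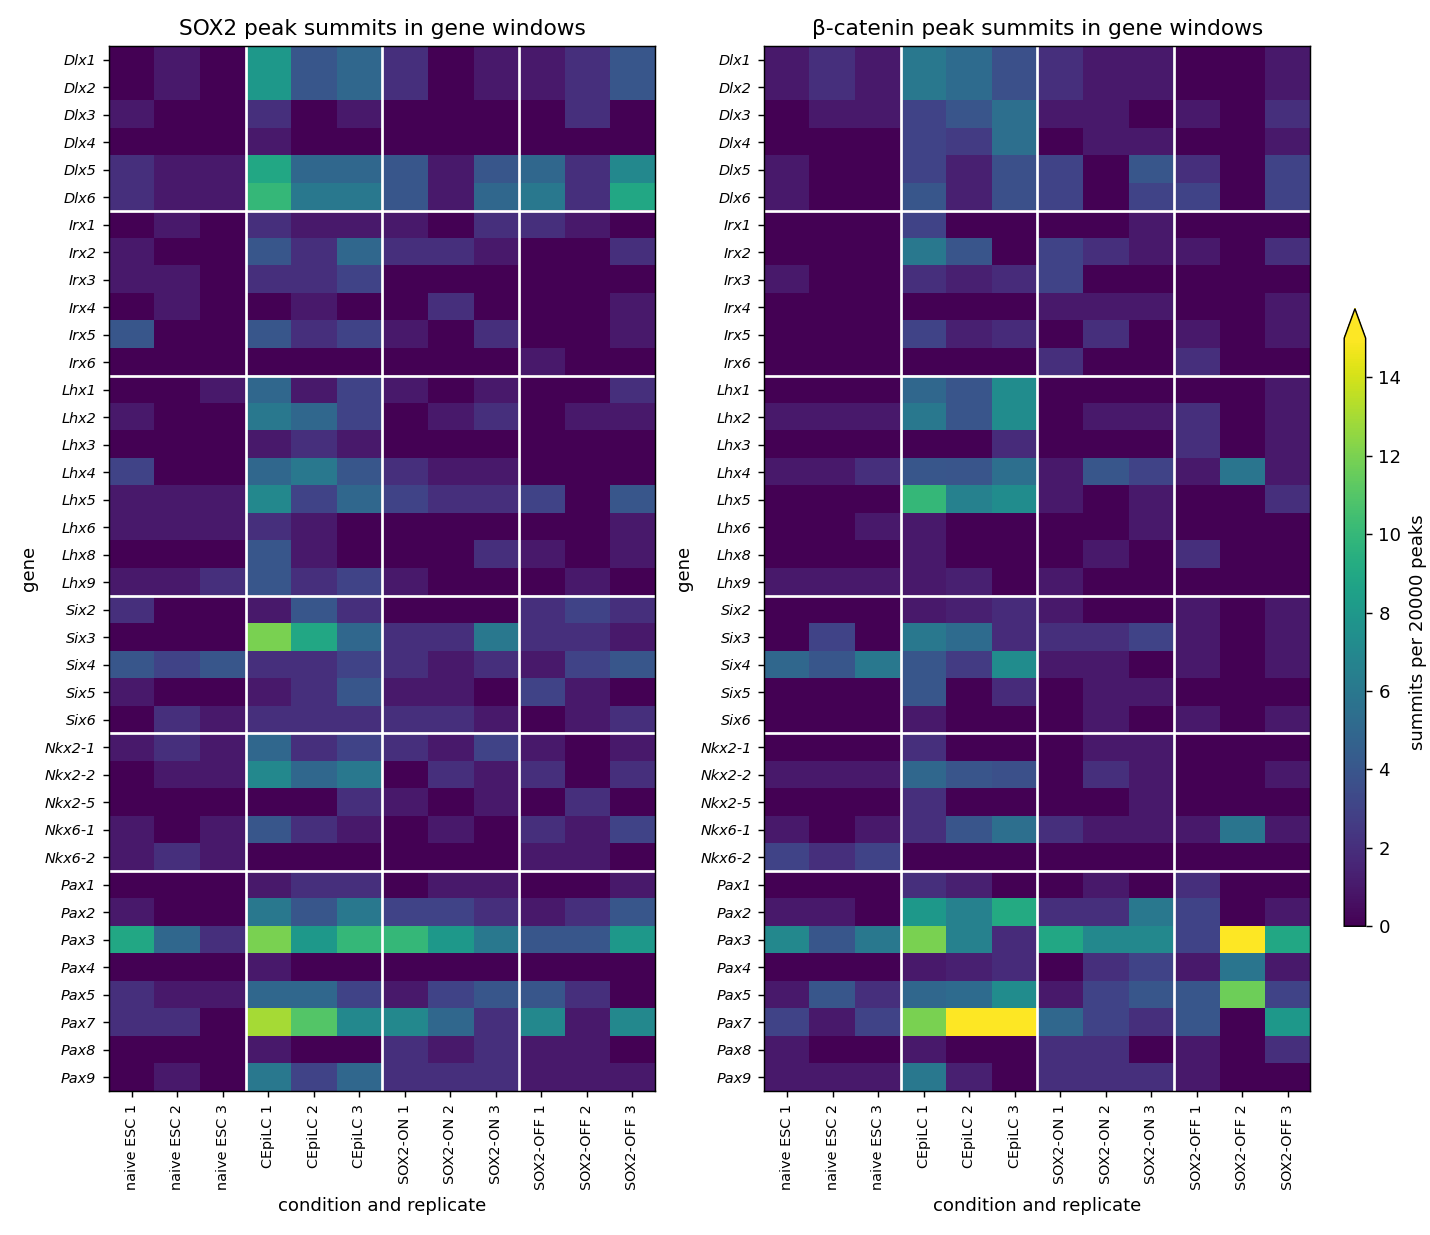
Peak summits per 20000 peaks in the window of each of the 38 genes (rows, grouped by family) for the 12 libraries of each target (columns, by condition and replicate), with SOX2 on the left and β-catenin on the right. In the SOX2 libraries of CEpiLC the highest values are 13 at Pax7, 12 at Six3 and 12 at Pax3, and the colour scale stops at 15, which the short β-catenin lists exceed at Pax3 and Pax7.

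The count rested on all replicates. When one library was left out, 7 to 14 members and 291 to 1011 of all genes were called, with the fewest members without CEpiLC replicate 1, but when a replicate number was left out of every condition 0, 0 and 1 were called, and only 0 to 2 of all genes were. The differences themselves stayed positive in those fits and in those without one library, at 3.85 to 4.45 for Six3, 2.64 to 3.52 for Pax2 and 1.87 to 2.35 for Dlx6. GC content moved with the result, and 16.1 to 25.4% of SOX2 summits in CEpiLC had at least 60% G and C within 100 bp, against 5.62 to 7.83% in naive ESC. With only summits under 60% GC, 12 members were called and 11 of them were among the 13. The share of all genes called at that setting is not given here, so this count shows no excess over all genes.

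β-catenin summits rose at 9 members in CEpiLC and fell at Nkx6-2. All 38 genes were tested over 15965 genes, and the calls stood against 5.78% of genes higher and 3.26% lower. Lhx1 reached the filter only through CEpiLC and Nkx6-2 only through naive ESC, so both had to differ. With the filter set on the 9 libraries other than CEpiLC, 8 of 32 members rose, beside 4.89% of genes, and with naive ESC set aside in that way 0 of 36 fell, beside 2.74%. The median log2 difference was 1.60 over the members and 0.06 over all genes. Of these 10 genes, Six3, Irx2, Pax2, Pax7, Lhx5 and Dlx6 were also called for SOX2.

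Lhx5 had 0, 0 and 0 β-catenin summits in naive ESC and 10, 5 and 4 in CEpiLC, from lists of 20000, 15201 and 10930 peaks. The log2 difference was 4.06 ± 0.77 (limma adjusted p = 0.000153), and SOX2-ON and SOX2-OFF held at most 2. Lhx1, a gene of the head organizer and of mesoderm, held 0, 0 and 0 and then 5, 3 and 4 (3.53 ± 0.76, limma adjusted p = 0.00112). Because Lhx1 passed the filter only through CEpiLC, that p-value is no evidence of a difference. Pax7 held 3, 1 and 3 and then 12, 13 and 11 (2.65 ± 0.55, limma adjusted p = 0.000862).

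Pax2 held 1, 1 and 0 β-catenin summits in naive ESC and 8, 5 and 5 in CEpiLC. Dlx4, whose window overlaps that of Dlx3, held 0, 0 and 0 and then 3, 2 and 3. Irx5, Irx2, Six3 and Dlx6 passed more narrowly, with adjusted p between 0.0373 and 0.0486 in limma, and their CEpiLC libraries held from 0 to 6 summits.

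Nkx6-2, a gene of ventral neural tube and oligodendrocytes, held 3, 2 and 3 β-catenin summits in naive ESC and 0 in each of the other 9 libraries of the strongest peaks (log2 difference -2.65 ± 0.71, limma adjusted p = 0.00912). It passed the β-catenin filter only through naive ESC, so that p-value is no evidence of a difference. For TCF7L1 it held 3, 4 and 3 summits in naive ESC and 0, 0 and 0 in CEpiLC (-2.93 ± 0.79, limma adjusted p = 0.0289). The TCF7L1 list of CEpiLC replicate 1 held only 1628 peaks, so a 0 there carries little.

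Without a test, 19 of 38 members had all CEpiLC libraries above all naive ESC libraries for β-catenin, against 14.5% of all genes, and 1 of 38 had them all below, against 10.6%. These orders are of scaled counts. Before scaling, the groups met at Dlx1, Dlx2, Dlx5, Dlx6, Irx3 and Pax5, so the higher order there rested on the scaling of the short CEpiLC lists. Of 49 other homeobox genes tested, 14 rose and 0 fell, a share of 28.6% beside 23.7% of the members. With one library left out 5 to 15 members were called. The fewest came without naive ESC replicate 3, when 306 of all genes passed, and the most without SOX2-OFF replicate 2, when 2250 did. With any replicate number left out of every condition 0 members and 0 genes were called. With only lists of 20000 peaks, which left 1 CEpiLC library assumed to vary like the other groups, 0 members and 3 of all genes were called. With lists shortened to 3423 peaks 3 of 19 members tested and 25.1% of genes were called, and 0 of them were among the 10. The share of summits with at least 60% GC was 21.9 to 28.2% in CEpiLC and 2.63 to 6.29% in naive ESC. With summits under 60% GC 7 members were called, all among the 10, again without a share of all genes beside them.

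LEF1 summits rose at 3 of 37 tested members in CEpiLC and fell at 0, against 0.958% of 17958 genes higher and 0.245% lower. Pax7 held 3, 4 and 1 LEF1 summits in naive ESC and 7, 11 and 15 in CEpiLC (2.73 ± 0.65, limma adjusted p = 0.0103). Dlx4 held 1, 0 and 0 and then 3, 4 and 3, and Lhx2 0, 0 and 0 and then 1, 2 and 4, from CEpiLC lists of 4443, 16518 and 20000 peaks. In 16 of 37 members all CEpiLC libraries were above all naive ESC libraries, against 8.11% of all genes, and in 0 were they all below, against 3.95%. These orders are of scaled counts. Before scaling, the groups were also apart at Dlx3, Dlx4, Dlx5, Lhx2 and Pax7. At the rest of the 16 the raw counts met or overlapped, so their order rested on the scaling of the short CEpiLC lists. Dlx1, for example, held 0, 1 and 1 summits in naive ESC and 1, 1 and 4 in CEpiLC. Lhx2 reached the filter only through CEpiLC, and with the filter on the other 9 libraries 2 of 35 members rose, beside 0.931% of genes. The 3 calls did not hold without naive ESC replicate 3 or CEpiLC replicate 1, where 0 were left.

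TCF7L1 gave 0 members higher and 1 lower of 34 tested, against 0.706% of 16723 genes higher and 2.03% lower, and that call was lost without any one of the naive ESC libraries, when 0 of all genes passed. All CEpiLC libraries were above all naive ESC libraries at Lhx4 and Nkx6-1, against 1.38% of genes, and below at Pax9, Six4 and Nkx6-2, against 13.9%. The higher order at Lhx4 and Nkx6-1 rested on scaling the CEpiLC replicate 1 list of 1628 peaks. Before scaling, Lhx4 held 2, 2 and 1 summits in naive ESC and 1, 3 and 3 in CEpiLC. Nkx6-1 held 1, 0 and 1 and then 1, 2 and 3. TCF7L2 gave 0 of 38 in limma, against 0% of 17959 genes in either direction, and 5 members and 1321 genes, 7.36% of those tested, had an unadjusted p under 0.05. For TCF7L2, Six4 was higher in all CEpiLC libraries, against 3.92% of genes, and Irx4 and Nkx6-2 were lower, against 2.48%.

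**Figure D2:**
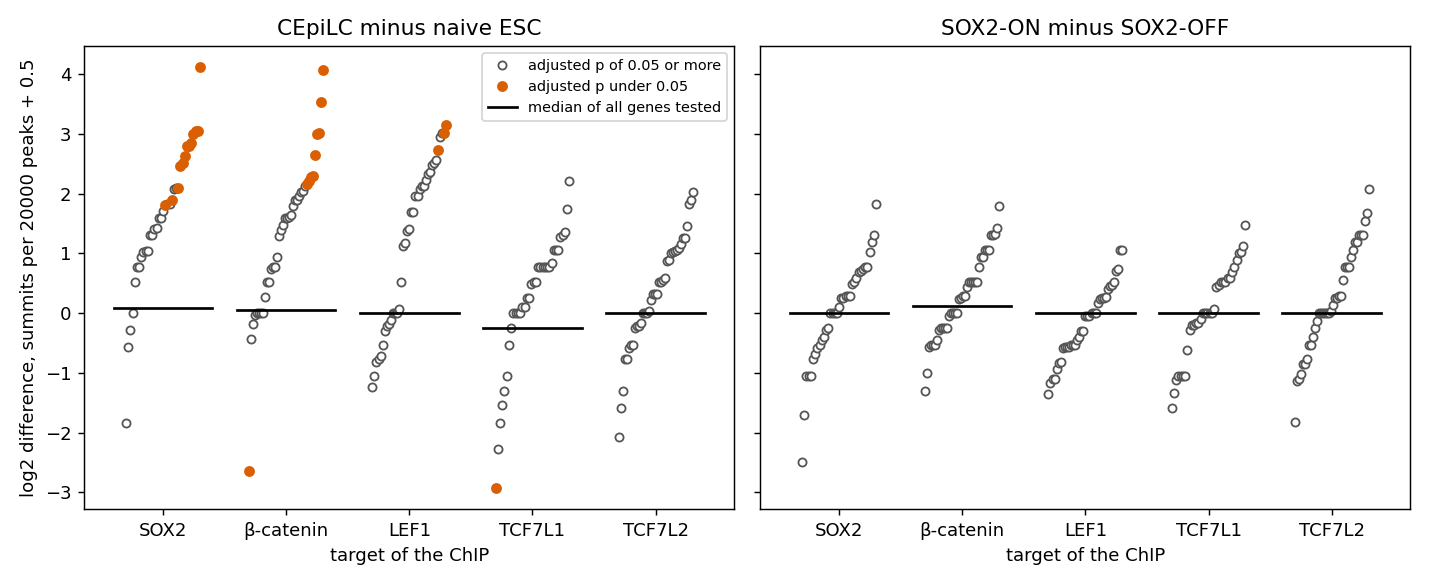
Log2 difference of each tested member (points, ordered by size within each target) for CEpiLC minus naive ESC on the left and SOX2-ON minus SOX2-OFF on the right, with filled points for adjusted p under 0.05 in limma and a bar at the median of all genes tested. On the left, filled points above 0 belong to SOX2, β-catenin and LEF1 and those below 0 to β-catenin and TCF7L1, 1 each, and on the right none is filled.

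Within the SOX2 TetON line, no member was called for any of the 5 targets. Between SOX2-ON and SOX2-OFF, 0 of 35 members passed for SOX2 in limma, against 0.676% of all genes higher and 0.409% lower, and 3 members and 2851 genes, 16.9% of those tested, had an unadjusted p under 0.05. For β-catenin 0 of 38 passed against 0% and 0.0125%, and for LEF1, TCF7L1 and TCF7L2 0 of 37, 34 and 38 passed against 0% in either direction. At an unadjusted p under 0.05 there were 1, 1, 1 and 2 members for β-catenin, LEF1, TCF7L1 and TCF7L2, where 11.1%, 4.6%, 5.92% and 5.04% of all genes were.

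Six2, a gene of kidney progenitors, came closest for SOX2. It held 0, 0 and 0 summits in SOX2-ON, 2, 3 and 2 in SOX2-OFF, 2, 0 and 0 in naive ESC and 1, 4 and 2 in CEpiLC (log2 difference -2.48 ± 0.69, limma adjusted p = 0.0552). All SOX2-OFF libraries were above all SOX2-ON libraries, where 4.88% of all genes had that order. Six2 passed when peaks were ranked by p-value, and with only the 6 libraries compared Six2, Lhx4 and Pax9 passed. Lhx4 and Pax9 were the members with all SOX2-ON libraries higher, at 2, 1 and 1 against 0, 0 and 0 and at 2, 2 and 2 against 1, 1 and 1, where 5.52% of all genes had that order.

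For β-catenin Pax9 and Six3 were higher in all SOX2-ON libraries, against 4.64% of genes, and 0 members were lower, against 1.75%. For LEF1 Six3 was lower, against 2.58%, and 0 members were higher, against 1.96%. For TCF7L1 Pax3 was higher, against 2.55%, and Lhx8 lower, against 2.3%. For TCF7L2 Nkx6-2 was higher, against 2.82%, and Dlx2 lower, against 1.22%. None of these orders was past the threshold in limma.

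The CEpiLC gain was larger than the change from SOX2-ON to SOX2-OFF for 6 members for SOX2 and 3 for β-catenin, by the difference of the contrasts in the same limma fit. In that test 0.996% of all genes passed in the same direction for SOX2 and 0.476% for β-catenin. Cell line, medium and stage cannot be told apart in this difference, because naive ESC had no counterpart in the SOX2 TetON line.

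Grouped by family, density was compared with all gene windows merged, as the log2 ratio of summits per Mb. To each family's summit count, but not to that of all genes, 0.5 was added, which raises families with few summits most. For SOX2, averaged over the 12 libraries, the windows of Six2 to Six6 had 3.96 times and those of the Dlx genes 3.20 times the density of all genes. Nkx followed at 2.60, Pax at 2.06 and Lhx at 1.61 times, and Irx was lowest, with a log2 ratio of 0.59. For β-catenin the order was Dlx at 3.10, Pax at 2.79, Six2 to Six6 at 2.71, Nkx at 2.13, Lhx at 1.68 and Irx at 1.21 times. Neighbours in each order differed by less than the larger of their SDs between replicates, which were 0.22 to 1.08 on the log2 scale for SOX2 and 0.26 to 0.74 for β-catenin.

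The order of the families was not the same within each condition. For SOX2 in CEpiLC, Lhx at 2.20 lay above Pax at 1.97 on the log2 scale, and for β-catenin Lhx at 2.31 lay above Pax at 2.19 and Nkx at 2.00. For SOX2 and β-catenin the families lay closer together in CEpiLC than in naive ESC. Irx set the low end in naive ESC on few summits, 0 to 6 per library for SOX2 and 0 to 1 for β-catenin. In libraries with 0 summits the Irx value was set by the added 0.5. From naive ESC to CEpiLC the span between families also fell for TCF7L1, from 1.38 to 1.07. It rose for LEF1, from 1.098 to 1.75, and for TCF7L2, from 0.659 to 1.199. The mean log2 ratio for SOX2 in CEpiLC ranged from 1.85 ± 0.30 (SD, n = 3) for Irx to 2.84 ± 0.50 for Dlx. In naive ESC it ranged from -0.37 ± 1.96 for Irx to 1.32 ± 0.28 for Six2 to Six6. For β-catenin it ranged in CEpiLC from 1.37 ± 0.84 for Irx to 2.82 ± 0.26 for Dlx, and in naive ESC from -1.96 ± 0.90 for Irx to 1.46 ± 0.26 for Six2 to Six6. In naive ESC Six2 to Six6 had the highest mean for both proteins. Six4 held most of those summits, with a mean per library of 3.67 for SOX2 and 5 for β-catenin. Six2, Six3, Six5 and Six6 each had a mean of at most 1 for either protein, so the family value rested mainly on Six4.

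**Figure D3:**
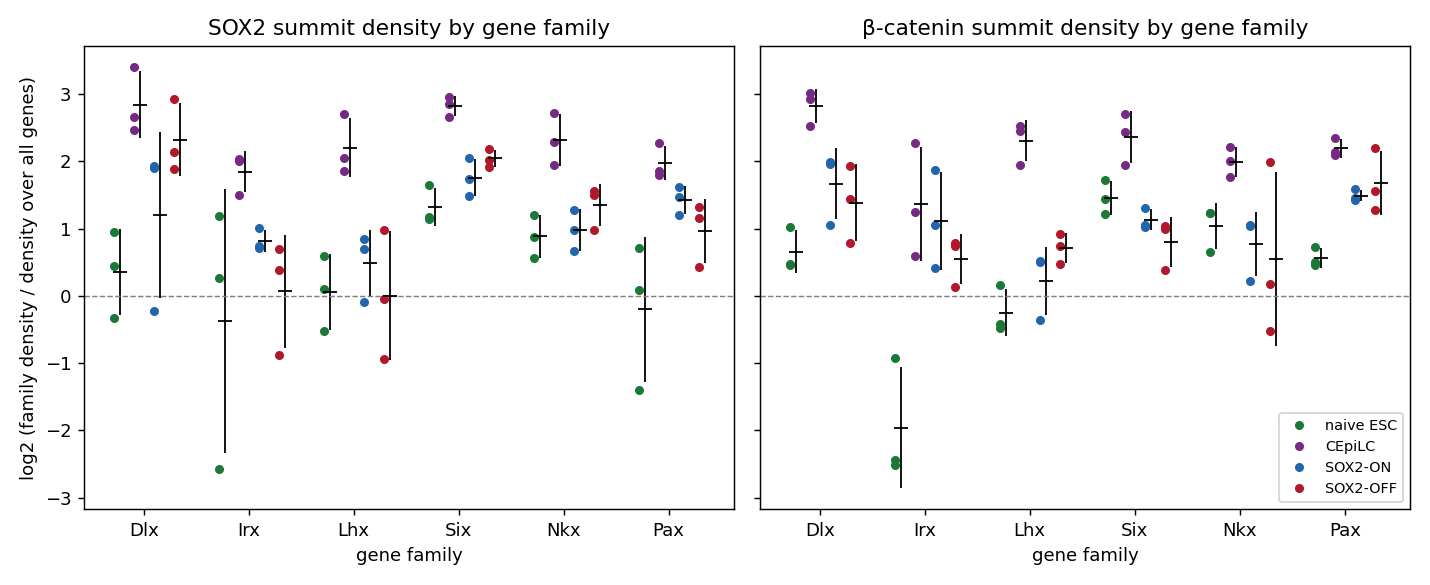
Log2 ratio of summit density in family windows over density in all gene windows for SOX2 (left) and β-catenin (right), by family, with 1 point per library, colours for the 4 conditions and black bars for the mean and SD of 3 libraries. Family counts have 0.5 added. CEpiLC has the highest mean in each family for both proteins, and Irx has the lowest mean in naive ESC for both.

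At the level of single places, the Pax3 intron site shown above had the same pattern in the full lists for all 5 proteins. The site lay 28985 bp into the gene. Among the strongest peaks LEF1 had it in 1 of 3 libraries of naive ESC and 1 of 3 of CEpiLC. The full LEF1 lists held 117834 to 812208 peaks in naive ESC and 4443 to 20451 in CEpiLC. Absence from such short lists carries little, as with the TCF7L1 list of 1628 peaks and the TCF7L2 list of 4627 in CEpiLC. SOX2 had peaks there of 17.3-, 16.6- and 9.47-fold enrichment in naive ESC and 24.9, 22.7 and 20.3 in SOX2-ON, and β-catenin of 52.1, 28.8 and 36.1 and 46.1, 43.7 and 24.8. In the full lists, SOX2-OFF had a peak within 250 bp in 0 of 3 libraries for each of the 5 proteins, and CEpiLC in at most 1 of 3. TCF7L1 reached 42.3, 38.8 and 58.2 in naive ESC and 7.33, 27.9 and 36.5 in SOX2-ON. The number of SOX2 summits in the whole Pax3 window overlapped between SOX2-ON and SOX2-OFF, at 10, 8 and 6 against 4, 4 and 8. A second intron site of Pax3, 77032 bp into the gene, had a SOX2 peak in all 12 full lists.

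The Six3 place, at -7741 bp from the gene start, had a peak only in SOX2-ON, apart from 1 LEF1 library of SOX2-OFF. SOX2 had a fold enrichment there of 5.79, 15.6 and 21.6. The values were 14.4, 11.03 and 10.1 for β-catenin and 10.3, 13.3 and 14.9 for LEF1. The full lists of naive ESC and CEpiLC held no peak there for any of the 5 proteins. The gain of SOX2 summits at Six3 in CEpiLC therefore lay at other places.

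In the Nkx2-2 intron SOX2 was enriched 50.4-, 44.6- and 62.2-fold in CEpiLC, against 7.77, 29.6 and 17.0 in naive ESC and at most 10.3 in the SOX2 TetON libraries. LEF1 had a peak there in 3 of 3 CEpiLC libraries and, within 250 bp of its own median summit, in 1 full list of naive ESC. In the Pax5 intron, 107978 bp into the gene, all 5 proteins had a peak in 3 of 3 CEpiLC libraries. For β-catenin these were 31.6-, 22.8- and 25.0-fold, with 0 of 3 in naive ESC and 15.1, 6.92 and 11.4 in SOX2-OFF. The Lhx4 intron site was found in all 12 β-catenin lists, from 5.63- to 27.2-fold, and its enrichment overlapped between SOX2-ON and SOX2-OFF.

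Other sites differed between proteins or lines. At 7821 bp from the start of Irx2, SOX2 had a peak of 17.4-, 24.3- and 21.0-fold in SOX2-ON and in 0 of 3 libraries of SOX2-OFF, while CEpiLC had 5.91, 5.47 and 6.65 and naive ESC 8.13, 2.52 and 5.89 in the full lists. At Six4, 27382 bp from its start, SOX2 had a peak in all 12 lists, of 32.6-, 32.0- and 35.9-fold in naive ESC and 11.999, 22.3 and 23.5 in CEpiLC. β-catenin had one there of 23.5-, 11.9- and 23.5-fold in naive ESC and in 0 of 3 CEpiLC libraries.

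At -139 bp from the start of Six2, SOX2 enrichment was 17.0, 26.3 and 37.2 in CEpiLC and 5.96, 21.8 and 15.03 in SOX2-OFF, and naive ESC had 5.40, 4.54 and 3.74 in the full lists. In SOX2-ON 1 of 3 libraries had a peak there, of 3.05-fold, so the groups of the TetON line did not overlap. The site at -13533 bp from Nkx6-2 had β-catenin peaks of 14.7-, 9.92- and 14.2-fold in naive ESC and TCF7L1 peaks of 21.2, 12.5 and 36.6, and neither protein had a peak there in CEpiLC. Near Lhx1, at -13256 bp, β-catenin had peaks of 10.5-, 4.47- and 9.92-fold in CEpiLC and none in the other 9 lists.

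**Figure D4:**
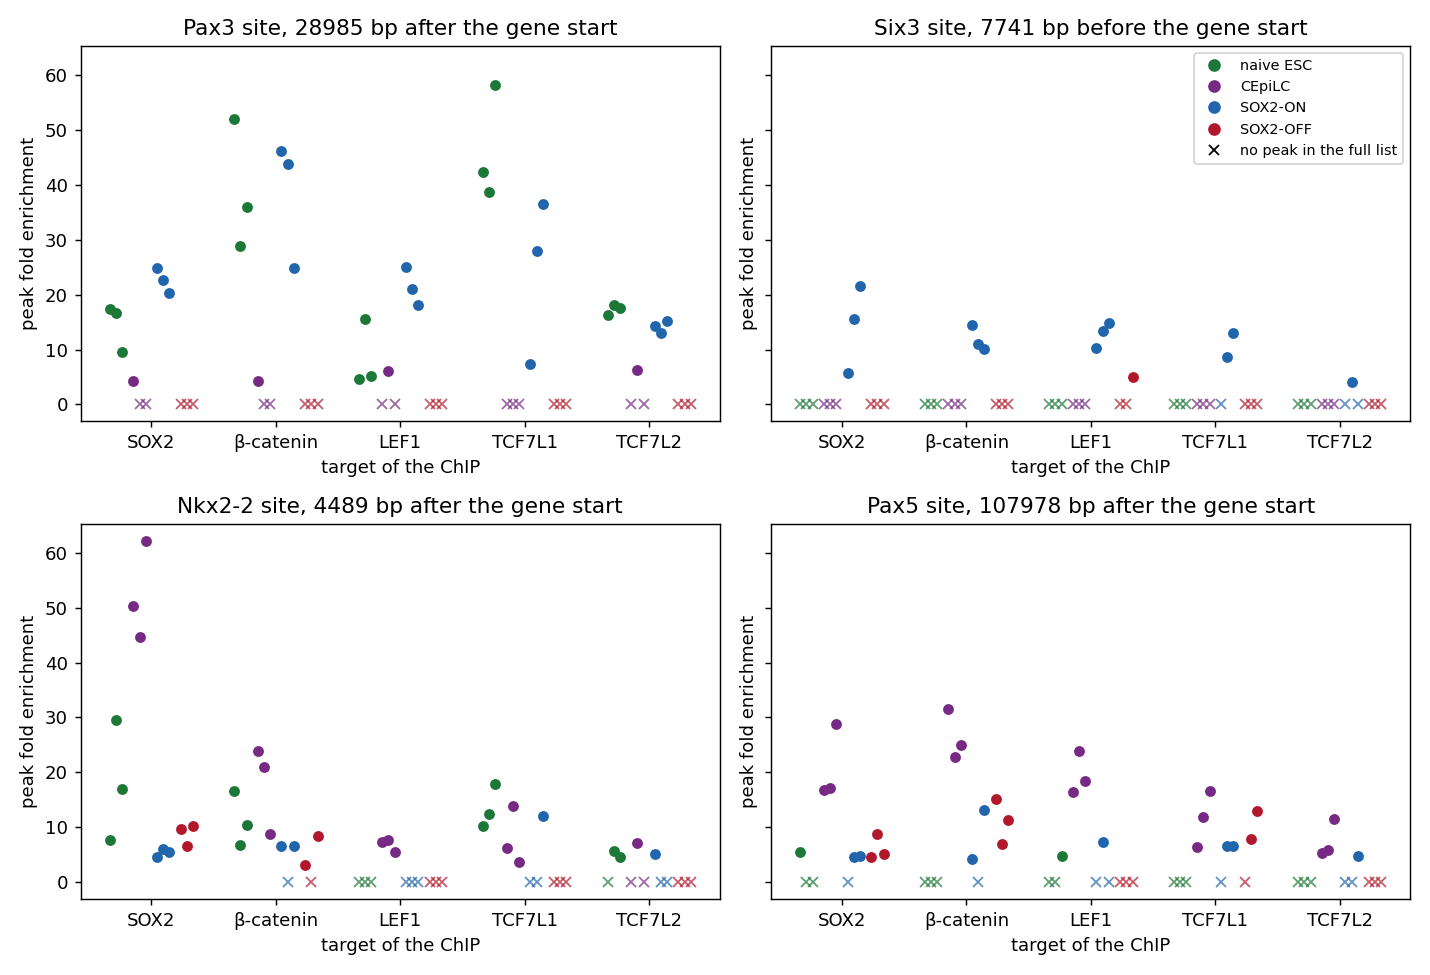
Fold enrichment of the peak at 4 places (panels) by target, with 1 point per library, colours for the 4 conditions and crosses at 0 for libraries with no peak within 250 bp in the full list. At Pax3 naive ESC and SOX2-ON have peaks for all 5 proteins, at Six3 peaks are almost all of SOX2-ON, and at Nkx2-2 and Pax5 CEpiLC has the highest SOX2 values.

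Counted over all members, 25 of 392 SOX2 sites had a peak in 3 of 3 CEpiLC and 0 of 3 naive ESC libraries among the strongest peaks, and 3 the reverse. Over the genome these counts were 2407 and 2263 of 130225. Pax windows held 9 of the 25, those of Irx, of Lhx and of Six2 to Six6 4 each, Dlx 3 and Nkx 1. The families differ in size, and of all 392 sites Pax windows held 134, Lhx 72, Six2 to Six6 65, Nkx 44, Dlx 39 and Irx 38. Between SOX2-ON and SOX2-OFF, 7 sites were found only in SOX2-ON, 6 of them in Pax windows and 1 near Irx2, and 1 only in SOX2-OFF, near Six2. Over the genome these counts were 4082 and 633. For β-catenin 22 of 299 sites had this CEpiLC pattern and 7 the reverse, of 2816 and 3933 among 118064 over the genome.

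Sites found in at least 2 of 3 libraries numbered 16 for SOX2 in naive ESC and 76 in CEpiLC, while SOX2-ON had 34 and SOX2-OFF 16. The genome as a whole held 12771 such sites for naive ESC and 13911 for CEpiLC. For the SOX2 TetON line it held 13514 with doxycycline and 6470 after its withdrawal. The lower count in SOX2-OFF is therefore not shown to be particular to the members. In the same order of conditions, a SOX match lay within 100 bp of 62.5%, 40.8%, 67.6% and 18.8% of the members' sites. For the sites over the genome these shares were 61.8%, 51.9%, 69.7% and 46.3%. In CEpiLC 11 of the 76 lay within 1 kb of a gene start and 34 in introns, while in naive ESC 0 of 16 lay near a start and 6 in introns. The shares of these places over the genome are not given here, so this difference is not shown to be particular to the members. A β-catenin site of the same condition lay within 250 bp of 43.8% of the members' SOX2 sites in naive ESC (7 of 16) and 25.0% in CEpiLC (19 of 76), beside 54.3% and 35.8% over the genome. The β-catenin lists of CEpiLC replicates 2 and 3 held only 15201 and 10930 peaks, and the effect of list length on these shares was not tested.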

How the data were processed

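ChIP-seq peak lists of 60 libraries were used, and 4 input samples were not analysed here. The authors used the nf-core ChIP-seq pipeline, aligned reads with BWA and called narrow peaks with MACS (MACS2 and mm10 in the submitters' processing notes) separately for each library. Which input served which library is not given in the sources used here, and biological replicates are independent only as the labels state. Per peak, each deposited list gives a score, a fold enrichment (a ratio of signal at the summit to background), a −log10 p-value and a −log10 q-value all computed by the authors. The deposited fold was used to rank peaks and to describe sites, and the deposited −log10 values only in alternatives. Read depth is unknown, so no counting interval can be given.

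Summits were counted in gene windows (GENCODE vM21 basic, protein-coding) and scaled to 20000 peaks. limma 3.58.1 in R 4.3.3, with trend and robust settings, was fitted to log2 (summits per 20000 + 0.5) over all genes with a mean of at least 0.25 in the 12 libraries of a target. P-values were adjusted by Benjamini-Hochberg over all genes tested, with calls at 0.05 and 8 residual degrees of freedom. The tests were two-sided. In data simulated for CEpiLC against naive ESC, with changes in genes averaging at least 1 summit, 8-fold and 4-fold changes were recovered in 56.6% and 5.94% of cases for SOX2 (15733 genes) and in 52.2% and 6.48% for β-catenin (14751 genes). Summits within 250 bp were chained into sites, and sequences came from the GRCm38 reference with pysam 0.24.0. Matches to motif letters were searched on both strands.

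Named were all members called or with groups that did not overlap, the member with the highest mean per family and target, and, per family, the SOX2 and β-catenin sites found in most libraries and those found in 3 of 3 against 0 of 3 libraries with the highest fold. Of these, the genes and sites that show the pattern most plainly are given, and the rest as counts. No member had 0 summits in all 60 shortened lists. The members and lists were chosen with earlier results of these data known. Alternatives changed the list length, ranking, q-value filter, window, peak overlap in place of summits, pseudocount, filter, samples and block. The restriction on GC, the restriction to lists of 20000 peaks, the filter on the 9 libraries outside one condition and the omission of single libraries were chosen after seeing the data.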

Additional observations from a re-analysis of the deposited data

Results flagged for a closer look

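The gain of summits from naive ESC to CEpiLC differed from the change from SOX2-ON to SOX2-OFF for 9 combinations of gene and target, by limma's test of the difference between the contrasts, adjusted over all genes tested. Values are log2 differences of summits per 20000 peaks, and each was positive. For SOX2 the difference was 4.82 ± 0.76 (SE) at Six3 (adjusted p = 8.97e-05), 4.34 ± 0.97 at Lhx4 (0.011), 3.28 ± 0.76 at Pax2 (0.0156), 3.53 ± 0.84 at Pax9 (0.02), 2.94 ± 0.70 at Pax7 (0.0202) and 3.76 ± 0.97 at Irx2 (0.0292). For β-catenin it was 4.32 ± 0.98 at Pax2 (0.012), 4.34 ± 1.09 at Lhx5 (0.0318) and 3.09 ± 0.78 at Pax7 (0.0329). The β-catenin values rest in part on SOX2-OFF replicate 2, whose list held 3423 peaks. Each stands here because the effect of the contrast differed between the cell lines. Cell line, medium and stage cannot be told apart here.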

How the results depend on the processing

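Read depth is unknown. With all deposited peaks 28 members were called for SOX2 (17% of all genes), 20 for LEF1 (29.7%) and 0 for TCF7L1 (0%) between CEpiLC and naive ESC. Percentages here are of all genes tested under that setting. The causes of the shifts given here were not tested. With lists of equal length, β-catenin had 3 calls (25.1%), LEF1 had 0 (0%) and TCF7L1 had 2 (15.4%), with 1 (5.34%) for TCF7L1 between SOX2-ON and SOX2-OFF. With only lists of 20000 peaks, 0 were called for β-catenin (0.0198%) and 0 for LEF1 (0.0178%). Windows of 5 kb gave 5 for LEF1 (1.23%) and 0 for TCF7L1 (2.81%), and windows of 50 kb gave β-catenin 5 (8.07%), LEF1 5 (2.2%) and TCF7L1 0 (1.58%). For LEF1, ranking by p-value gave 1 (0.593%), the q-value filter 0 (0.0123%), summits under 60% GC 1 (0.859%), a pseudocount of 1 gave 8 (2.27%), a filter at a mean of 1 gave 10 (10.6%) and the 6 libraries compared gave 0 (0.0167%). Without a filter 6 were called for β-catenin (5.59%), and the 6 libraries compared gave 2 for TCF7L1 (7.17%). Between SOX2-ON and SOX2-OFF, SOX2 gave 1 (1.24%) when ranked by p-value, 1 (1.12%) without a filter and 3 (5.61%) with only the 6 libraries compared. Leaving out replicates or single libraries gave SOX2 from 0 to 14 calls, β-catenin from 0 to 15, LEF1 from 0 to 5 and TCF7L1 from 0 to 2, with 0 for TCF7L2 and in all comparisons of SOX2-ON with SOX2-OFF. The β-catenin difference at Six3 turned to -0.031 with the q-value filter. Of the alternatives for single genes, 538 kept their direction and call, 223 lost the call and 1 turned. Family densities (log2) for SOX2 with 5 kb windows were 2.49 for Dlx, 1.78 for Irx, 2.64 for Six2 to Six6 and 2.01 for Nkx, and with 50 kb windows 1.29 for Six2 to Six6 and 0.55 for Nkx. For SOX2, Six2 to Six6 gave 1.41 with all deposited peaks and 1.68 under 60% GC. For β-catenin, 5 kb windows gave 2.21 for Dlx, 1.25 for Irx, 1.16 for Lhx, 1.92 for Six2 to Six6, 2.16 for Nkx and 1.77 for Pax. Windows of 50 kb gave 1.06 for Dlx, 0.25 for Lhx, 0.72 for Six2 to Six6, 0.24 for Nkx and 1.19 for Pax. All deposited peaks gave 1.20 for Pax, and summits under 60% GC 0.13 for Lhx.

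With the replicate number as a block, SOX2 had 13 members called, β-catenin 10, LEF1 4, TCF7L1 1 and TCF7L2 0 between CEpiLC and naive ESC, and 0 for each target between SOX2-ON and SOX2-OFF. The share of all genes called with the block is not given here, so these counts show no excess over all genes. The deviations of same-numbered libraries from their group means correlated between -0.18 and 0.12. No pairing by number showed in these counts, but counts this small may not reveal one.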
